A study of Mus musculus with 4 samples.

Results

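The genes described here are 52 genes of the DNA replication machinery, chosen by symbol: the subunits and regulators that license origins, unwind DNA, synthesise it, clamp the polymerases, join Okazaki fragments, protect the fork and restore chromatin and methylation behind it, with the enzymes of nucleotide synthesis left out. All 52 were among the 55335 genes listed, and all 52 were among the 11955 genes tested, those with at least 1 FPKM (fragments per kilobase, scaled to library size, so a level per length) in at least 2 libraries. The rule uses no measured value, but genes and lists were chosen with earlier results of these data known. They fall into 11 functional subgroups of 3 to 9 genes.

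The study sequenced RNA of 4 libraries from the mouse colon carcinoma line CT26. The library titled CT26_102_R and the one titled CT26_CTL_R carry the labels FOSL2-KO and chemoradiotherapy and are called the R libraries here. The library titled CT26_102 and the one titled CT26_CTL carry the labels FOSL2-WT and PBS and are called the libraries without the suffix. Where a pair of values is given for a labelled group, that of stem CT26_102 precedes that of stem CT26_CTL. Genotype and treatment change together between these 2 labelled groups, so their effects cannot be told apart. The titles give a second division, the stem CT26_102 against the stem CT26_CTL. Neither stem nor suffix is explained in the labels, which also do not say how FOSL2 was removed, which drug, dose or time the chemoradiotherapy involved, or whether a line is 1 clone, and the series' design speaks of a knockdown instead. No label puts the libraries in separate cultures, so the spread behind each p-value is that between these libraries alone and may be technical.

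Fosl2, an AP-1 family transcription factor named in the labels, was at 15.97 and 19.2 FPKM in the R libraries, against 9.35 and 12.7 FPKM in the libraries without the suffix (log2 difference 0.64 ± 0.131 SE, limma adjusted p = 0.0444, or 0.464 with the labelled group as the only term). It was thus higher, not lower, in the libraries labelled FOSL2-KO, so that the labels are used below as names only, and which bases were altered is not given. Estimated depth was between 21.7 and 26.5 M reads per library. The cells are labelled colon adenocarcinoma, and the growth protocol calls them mesenchymal. The colon epithelial markers Epcam and Cdx2 were at 0 in all 4 libraries and Cdh1 reached 0.0202 FPKM, while Krt18 and Krt20 were at 24.5 FPKM or more in each. The summed level of 6 mesenchymal markers was 622 and 584 FPKM in the R libraries and 962 and 753 FPKM in the libraries without the suffix, and its part in the results below was not tested. Leukocyte and endothelial markers stayed below 1 FPKM in every library.

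In eukaryotic cells the origin recognition complex marks origins, and Cdc6 and Cdt1 load the MCM2-7 helicase there while geminin keeps Cdt1 in check. The kinase Cdc7 with Dbf4 then helps turn the loaded ring into the active helicase, together with Cdc45 and the GINS complex. Polymerase alpha with primase starts each strand, polymerases epsilon and delta extend the strands on the PCNA clamp, and Fen1 and Lig1 finish the Okazaki fragments. Many of these genes are transcribed at the transition from G1 to S phase and are textbook targets of E2F factors, and cell cultures differ in their levels with the share of cells in S phase. In bulk RNA, fewer cells in S phase and less RNA per cell cannot be told apart.

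Because E2F is the textbook regulator of this class of genes, the promoters of 2 MCM2-7 subunits are shown, Mcm6 with the most negative difference of the helicase and Mcm3 with the negative difference nearest to 0. The sequences are from RefSeq (GRCm38.p6), the 250 bases before the start nearest the annotated gene start, written 5′ to 3′ on the strand of the gene. Both windows lie upstream of the gene body and hold no annotated exon. Capitals mark every match, on either strand, to the E2F type motifs TTTCGCGC and TTTGGCGC or to the CHR type motif TTTGAA.
Mcm6, chr1:128359706-128359955, minus strand: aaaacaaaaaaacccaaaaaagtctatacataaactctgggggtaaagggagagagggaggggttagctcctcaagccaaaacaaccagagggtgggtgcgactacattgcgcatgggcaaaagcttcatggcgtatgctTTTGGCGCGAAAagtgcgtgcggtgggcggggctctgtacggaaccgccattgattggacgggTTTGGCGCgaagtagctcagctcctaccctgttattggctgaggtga
Mcm3, chr1:20820313-20820562, minus strand: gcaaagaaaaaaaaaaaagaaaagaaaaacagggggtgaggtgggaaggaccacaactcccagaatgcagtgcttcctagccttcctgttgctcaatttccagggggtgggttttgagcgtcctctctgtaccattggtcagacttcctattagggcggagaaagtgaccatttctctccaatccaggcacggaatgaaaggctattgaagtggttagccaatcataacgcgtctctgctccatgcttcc

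In the Mcm6 window TTTGGCGC stood 110 to 103 bases before the start and again 47 to 40 bases before it. The first of these overlapped a match of TTTCGCGC on the opposite strand, which gives the 12-base run TTTGGCGCGAAA at chr1:128359804-128359815. Mcm5 held the same run on the opposite strand, TTTCGCGCCAAA, at chr8:75109356-75109367, 153 to 142 bases before its start. Only 4 of the 32851 promoters in the table (0.0122%) held this run in either orientation. The Mcm3 window held no match.

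The table had a promoter for 43 of the 52 genes. At least 1 E2F type match stood before a listed start of 7 of these 43 genes (16.3%), namely Mcm5, Mcm6, Orc1, Pola1, Rfc3, Dnmt1 and Uhrf1, against 205 of 27025 genes in the whole table (0.759%). The last 2 held theirs before another listed start than the one nearest the annotated gene start. Of these 7 genes, Rfc3 and Orc1 had positive log2 differences between the labelled groups (0.36 and 0.08) and the others negative ones. Mcm2, with no E2F type match, had one of -0.53. A relation between matches and differences was not tested. TTTGAA stood before 7 of the 43 genes (16.3%) and before 18.3% of all genes in the table. Lig1, with the largest fall of all 52, had no match in its window, and Fen1, with the largest rise, had none but TTTGAA on the opposite strand, 124 to 119 bases before its start. The windows of Lig1 (chr7:13276925-13277174) and Fen1 (chr19:10204394-10204643) do not reach the annotated genes, which begin at 13277283 and 10204169. The bases between lie outside these windows. A match is a run of letters and no measure of binding.

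Between the labelled groups most of the replication genes were lower in the R libraries in both stems, with a pair of genes that moved sharply the other way. Of the 52 genes, 35 (67.3%) were lower in the R library of both stems, where 38.2% of all tested genes were, 10 (19.2%) were higher in both, where 39.1% were, and 7 (13.5%) had opposite directions, where 22.6% did. The median log2 difference, on the log2(FPKM + 1) scale, was -0.28 for the replication genes (-0.25 in stem CT26_102 and -0.31 in stem CT26_CTL) and 0.00 for all tested genes. The summed level of the 52 genes took 0.257% and 0.236% of all FPKM in the R libraries, against 0.309% and 0.2996% in the libraries without the suffix. Both R libraries lay below both of the others in that share.

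With title stem and labelled group as terms of 1 limma fit, 2 of the 52 genes rose in the R libraries, where 7.57% of all tested genes did, and 8 fell, where 5.32% of all tested genes did, while 42 did not pass the adjusted threshold of 0.05. Either direction together made 10 of 52 genes, where 12.9% of all tested genes passed. At an unadjusted p under 0.05 there were 27 of 52 genes, where 36.1% of all genes passed. This fit has 1 residual degree of freedom, and with the labelled group as the only term no replication gene passed (1 of all tested genes did, 0.00836%), the smallest adjusted p of the 52 being 0.340, with 10 of 52 at an unadjusted p under 0.05, where 10.7% of all genes were. An exact permutation test of 2 libraries against 2 cannot go below a two-sided p of 0.333. Every rise and fall named below as such rests on the fit with both terms. Of the 52 genes, 24 had both R libraries below both of the others, where 21.1% of all tested genes did, and 6 had both above, where 22.3% did.

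**Figure D1:**
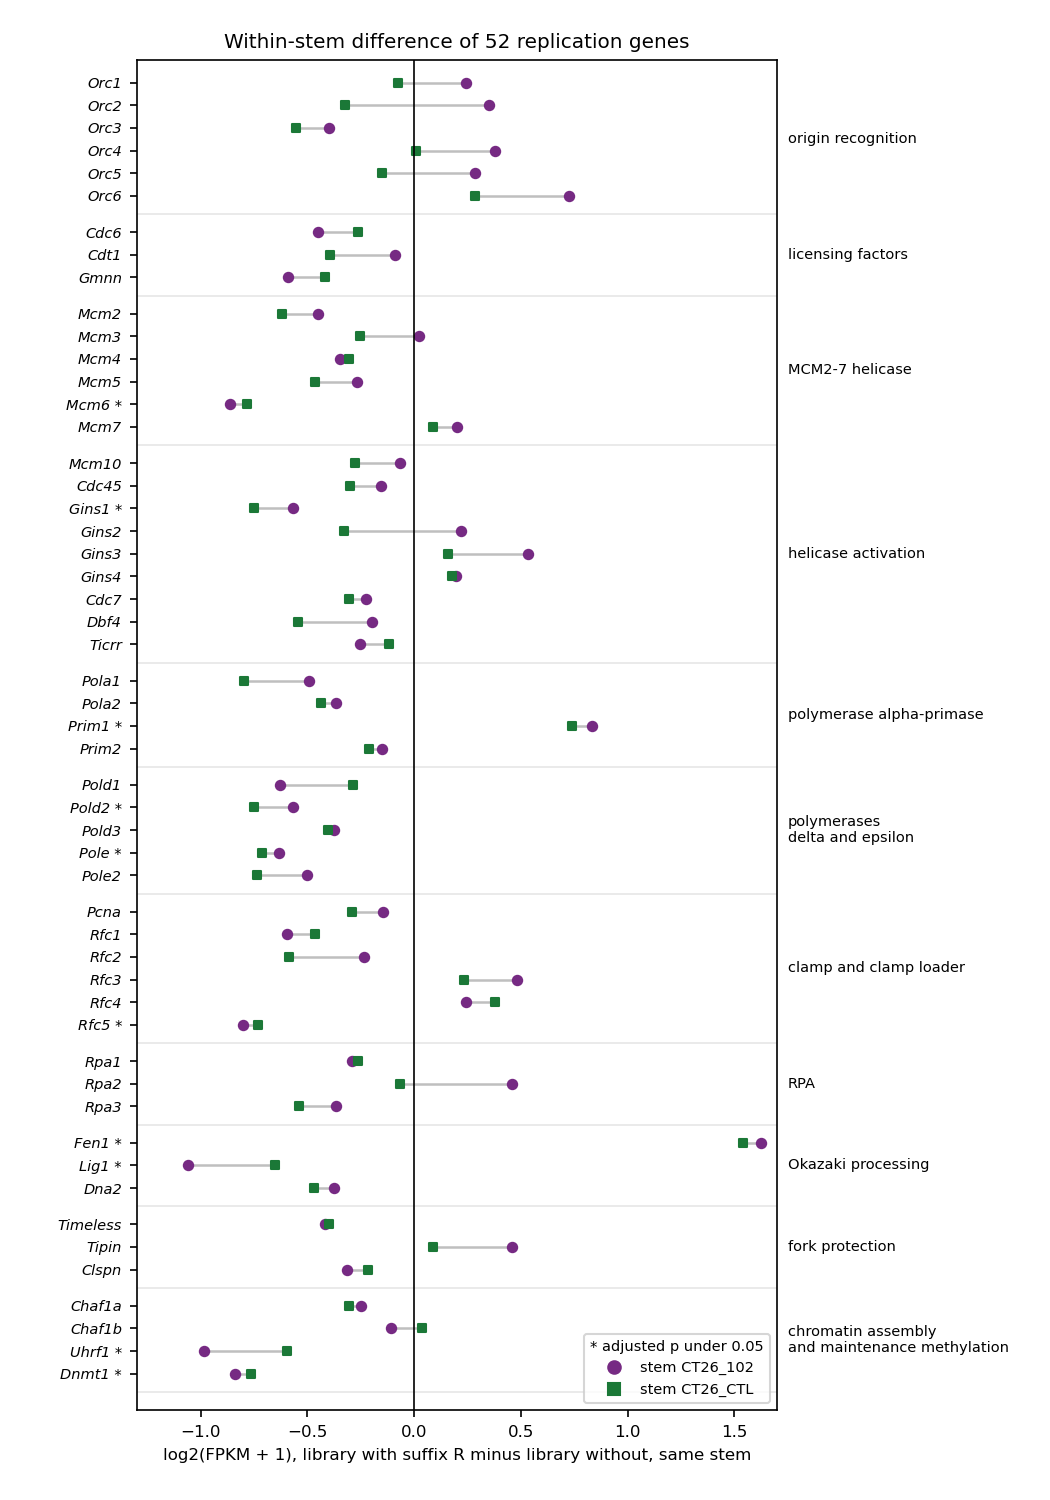
Difference in log2(FPKM + 1) between the R library and the library without the suffix, within stem CT26_102 (circles) and within stem CT26_CTL (squares), for the 52 replication genes by subgroup; an asterisk marks an adjusted p under 0.05. Most pairs of points lie left of 0, the 5 genes shown of polymerases delta and epsilon do in both stems, and Fen1 lies farthest to the right.

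The 6 subunits of the origin recognition complex, which marks the sites where helicases are loaded, did not share a direction. None of them passed the test, their log2 differences ran between -0.48 and 0.51 with a median of 0.08, and 3 of the 6 had opposite directions in the stems. Orc6, the smallest subunit and the one with the largest difference, was at 28.1 and 32.5 FPKM in the R libraries, against 16.6 and 26.5 FPKM in the libraries without the suffix (0.51 ± 0.156 SE, adjusted p = 0.0889). Both R libraries were above both of the others for Orc6. Orc3, a core subunit, was at 4.43 and 3.85 FPKM in the R libraries, against 6.17 and 6.11 FPKM in the libraries without the suffix (-0.48 ± 0.137 SE, adjusted p = 0.0789). The ratio of Orc6 to Orc3 was 6.33 and 8.43 in the R libraries and 2.69 and 4.33 in the libraries without the suffix. Each of these genes alone separated the groups, in opposite directions, so the gap in this ratio is no separate result.

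All 3 licensing factors were lower in the R libraries of both stems and none passed, with log2 differences between -0.50 and -0.24. Gmnn, which encodes geminin, the inhibitor of Cdt1, had the largest difference of them. It was at 13.2 and 23.3 FPKM in the R libraries, against 20.5 and 31.5 FPKM in the libraries without the suffix (-0.50 ± 0.129 SE, adjusted p = 0.0631). The groups overlapped, because CT26_CTL_R was above CT26_102. Cdc6, the ATPase that loads the helicase with Cdt1, was at 5.03 and 3.84 FPKM in the R libraries and 7.25 and 4.81 FPKM in the libraries without the suffix, and Cdt1 itself at 15.7 and 12.8 FPKM in the R libraries and 16.7 and 17.1 FPKM in the libraries without the suffix.

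Of the 6 subunits of the MCM2-7 ring, the core of the replicative helicase, Mcm6 fell and 5 did not pass. Their log2 differences ran between -0.82 and 0.15 with a median of -0.34. Mcm6 (ENSMUSG00000026355, GRCm38 chromosome 1, 128331590 to 128359664, minus strand) was at 21.5 and 19.1 FPKM in the R libraries, against 39.9 and 33.6 FPKM in the libraries without the suffix (-0.82 ± 0.122 SE, adjusted p = 0.0286). Its level in the libraries without the suffix was thus 1.86 and 1.76 times that in the R library of the same stem, with no overlap between the groups. Mcm7 went against it in sign, at 58.9 and 75.5 FPKM in the R libraries and 51.1 and 70.9 FPKM in the libraries without the suffix (0.15 ± 0.113 SE, adjusted p = 0.395).

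Since the 6 MCM2-7 proteins form a ring with 1 copy of each, their transcript levels were also compared with each other within a library. The highest subunit was 2.74 and 3.95 times the lowest in the R libraries, with Mcm7 highest and Mcm6 lowest in both, against 1.53 and 2.25 times in the libraries without the suffix. The spread of levels within the ring was thus wider in the R library of each stem. In the R libraries this spread is the ratio of Mcm7 to Mcm6, so it partly restates the fall of Mcm6. The summed level of the 6 genes was 226 and 202 FPKM in the R libraries, against 261 and 246 FPKM in the libraries without the suffix. A processed pseudogene, Gm5487, matches Mcm7 at 97.7% over 2157 bases and was at 2.32 to 2.87 FPKM, so a small share of reads could have been split between them.

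**Figure D2:**
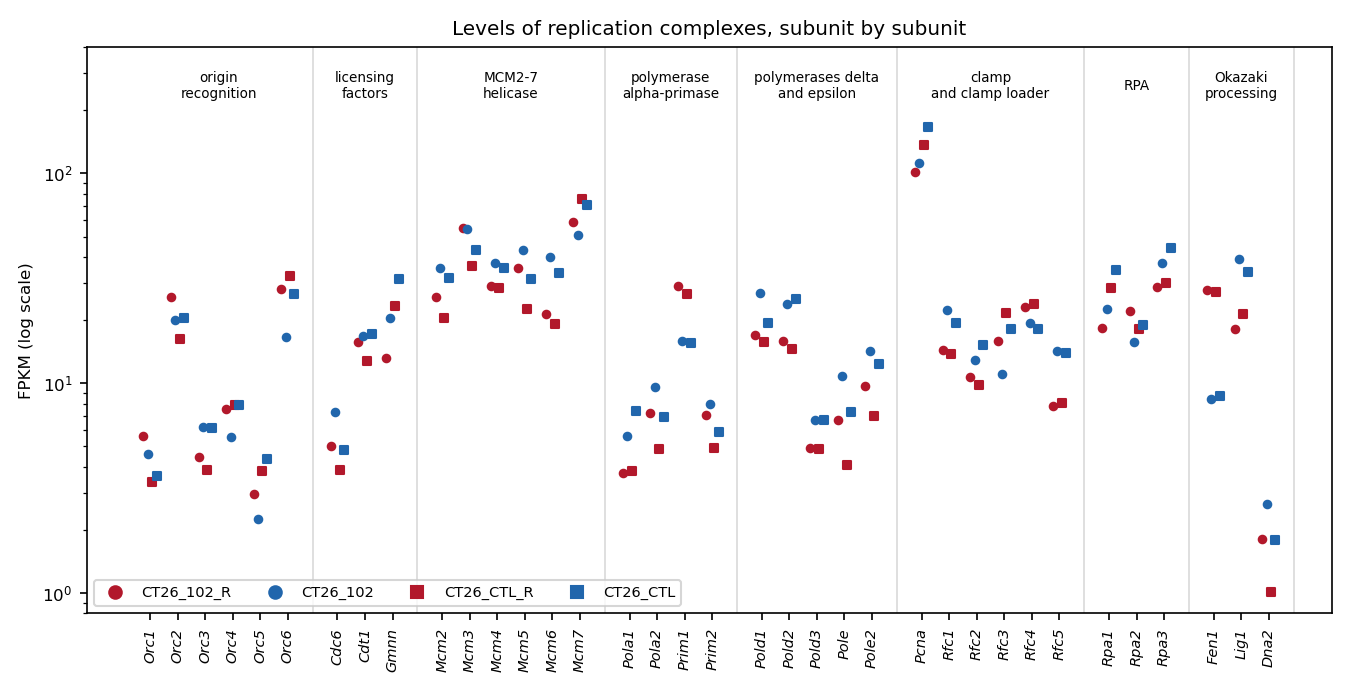
FPKM on a log axis for each subunit of 8 of the subgroups in each library; circles are stem CT26_102 and squares stem CT26_CTL, red the R libraries and blue the libraries without the suffix. The red points of Fen1 and Prim1 stand above the blue ones while those of their partners Lig1 and Pola1 stand below, and Pcna is the highest gene in every library.

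Among 9 genes of helicase activation, Gins1 fell and 8 did not pass, with log2 differences between -0.66 and 0.34 and a median of -0.18. Gins1 (ENSMUSG00000027454, chromosome 2, 150905400 to 150931280, plus strand), a subunit of the GINS complex that joins Cdc45 to the ring, was at 8.01 and 9.76 FPKM in the R libraries, against 12.4 and 17.1 FPKM in the libraries without the suffix (-0.66 ± 0.134 SE, adjusted p = 0.0441, or 0.0510 without the mean-variance trend of the fit). The groups did not overlap. The 4 GINS subunits did not share a direction: Gins3 was at 6.91 and 7.32 FPKM in the R libraries and 4.48 and 6.46 FPKM in the libraries without the suffix, and Gins4 at 32.0 and 38.3 FPKM in the R libraries and 27.8 and 33.8 FPKM in the libraries without the suffix. Gins2 had opposite directions in the stems. The kinase Cdc7 (-0.27), its activator Dbf4 (-0.37), Cdc45 (-0.23), Mcm10 (-0.17) and Ticrr (-0.18), which brings Cdc45 to origins, had negative log2 differences in both stems and did not pass.

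Of the 4 subunits of polymerase alpha and primase, which lay the primer together as 1 complex, Prim1 rose and 3 did not pass, with negative differences in both stems. Prim1 (ENSMUSG00000025395, chromosome 10, 128015168 to 128030037, plus strand), the catalytic primase subunit, was at 29.2 and 26.6 FPKM in the R libraries, against 15.9 and 15.5 FPKM in the libraries without the suffix. It rose 1.83 times in stem CT26_102 and 1.72 times in stem CT26_CTL (log2 difference 0.79 ± 0.125 SE, adjusted p = 0.0311). Both R libraries were well above both of the others. Pola1, the catalytic polymerase subunit, was at 3.71 and 3.80 FPKM in the R libraries, against 5.63 and 7.33 FPKM in the libraries without the suffix, just outside the threshold (-0.64 ± 0.149 SE, adjusted p = 0.0541). The ratio of Prim1 to Pola1 was 7.85 and 6.99 in the R libraries, against 2.83 and 2.11 in the libraries without the suffix. Prim1 and Pola1 each separated the groups, in opposite directions, so the gap in this ratio is no separate result. Prim2, the large primase subunit, had a log2 difference of -0.18 and Pola2 one of -0.40, and neither passed.

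Of polymerases delta and epsilon, the enzymes of lagging and leading strand synthesis, 5 genes form this subgroup. All 5 were lower in the R libraries of both stems, and in all 5 both R libraries lay below both of the others. Their log2 differences ran between -0.67 and -0.39 with a median of -0.62, the lowest median of the 11 subgroups. Of the 5 genes, 2 passed. The small subunits Pold4, Pole3 and Pole4, described further below, lie outside this subgroup and did not share its direction. Pold4 rose (log2 difference 0.75), Pole3 was higher in both stems but did not pass (0.50), and Pole4 had opposite directions in the stems. Pole (ENSMUSG00000007080, chromosome 5, 110286306 to 110337474, plus strand), the catalytic subunit of polymerase epsilon, was at 6.65 and 4.07 FPKM in the R libraries, against 10.9 and 7.31 FPKM in the libraries without the suffix (-0.67 ± 0.132 SE, adjusted p = 0.0421). Pold2 (ENSMUSG00000020471, chromosome 11, 5872180 to 5878292, minus strand), an accessory subunit of polymerase delta, was at 15.8 and 14.6 FPKM in the R libraries, against 23.9 and 25.2 FPKM in the libraries without the suffix (-0.66 ± 0.1302 SE, adjusted p = 0.0423, or 0.0510 without the mean-variance trend). Pole2 missed the threshold by little, at 9.71 and 7.002 FPKM in the R libraries and 14.2 and 12.3 FPKM in the libraries without the suffix (-0.62 ± 0.139 SE, adjusted p = 0.0507). Pold1, the catalytic subunit of delta, had a log2 difference of -0.46 and Pold3 one of -0.39.

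The clamp loader split by subunit. Rfc5 (ENSMUSG00000029363, chromosome 5, 117378103 to 117389047, minus strand), a small subunit of the loader that opens the clamp, was at 7.76 and 8.003 FPKM in the R libraries, against 14.3 and 13.95 FPKM in the libraries without the suffix (-0.77 ± 0.129 SE, adjusted p = 0.0342). Its 2 R libraries were close to each other and far below the others. Of its exonic bases 10.7% lie opposite those of Wsb2, which was at 18.3 and 17.7 FPKM in the R libraries and 11.6 and 16.1 FPKM in the libraries without the suffix, and the strandedness of the counting is not stated. Rfc4, another small subunit, was at 23.0 and 23.9 FPKM in the R libraries, against 19.3 and 18.1 FPKM in the libraries without the suffix, and did not pass (0.31 ± 0.127 SE, adjusted p = 0.149). Eif4a2, opposite 12.7% of the exonic bases of Rfc4, was at 27.8 and 21.5 FPKM in the R libraries and 20.03 and 19.4 FPKM in the libraries without the suffix. The ratio of Rfc4 to Rfc5 was 2.97 and 2.98 in the R libraries, against 1.35 and 1.30 in the libraries without the suffix, so that libraries of 1 labelled group nearly coincided. Each gene alone separated the groups, in opposite directions, so the gap between the groups in this ratio is no separate result.

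The large loader subunit Rfc1 had a log2 difference of -0.53 (adjusted p = 0.0573), Rfc2 one of -0.41 and Rfc3 one of 0.36. Pcna, the sliding clamp itself and the highest of the 52 genes in every library, was at 101 and 136 FPKM in the R libraries, against 112 and 167 FPKM in the libraries without the suffix, and did not pass (-0.22 ± 0.106 SE, adjusted p = 0.204). Its processed pseudogene Pcna-ps2 matches it at 99.2% over 781 bases and was listed at 19.3 and 25.2 FPKM in the R libraries and 22.3 and 33.8 FPKM in the libraries without the suffix, so the level of Pcna is uncertain to that extent.

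None of the 3 subunits of RPA, the complex that coats single-stranded DNA, passed. Rpa3, the smallest subunit, had the largest difference, at 28.8 and 29.9 FPKM in the R libraries and 37.5 and 43.9 FPKM in the libraries without the suffix (-0.45 ± 0.124 SE, adjusted p = 0.0713). Rpa1 was lower in both stems (-0.28), and Rpa2 had opposite directions in them (0.46 in stem CT26_102 and -0.07 in stem CT26_CTL).

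The enzymes that finish Okazaki fragments held both the largest rise and the largest fall of the 52 genes. Fen1 (ENSMUSG00000024742, chromosome 19, 10199132 to 10204169, minus strand), the endonuclease that trims the flap of each fragment, was at 27.9 and 27.1 FPKM in the R libraries, against 8.37 and 8.64 FPKM in the libraries without the suffix. It rose 3.33 times in stem CT26_102 and 3.13 times in stem CT26_CTL (log2 difference 1.58 ± 0.127 SE, adjusted p = 0.0161). Lig1 (ENSMUSG00000056394, chromosome 7, 13277283 to 13311433, plus strand), the ligase that seals the nick after Fen1 has acted, was at 18.2 and 21.3 FPKM in the R libraries, against 39.0 and 33.9 FPKM in the libraries without the suffix (-0.85 ± 0.152 SE, adjusted p = 0.0362). Neither gene overlapped between the groups. Fen1 stood at 1.53 and 1.27 times the level of Lig1 in the R libraries, against 0.215 and 0.255 times in the libraries without the suffix, so the order of the 2 genes was reversed. The gap in this ratio restates the rise of Fen1 and the fall of Lig1 and is no separate result. Dna2, a nuclease for long flaps, had the lowest level of the 3, at 1.81 and 1.02 FPKM in the R libraries and 2.64 and 1.79 FPKM in the libraries without the suffix, and did not pass (-0.42, adjusted p = 0.111).

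The exons of Fen1 lie partly opposite those of other genes. Gm10143, an antisense gene opposite 78.8% of the exonic bases of Fen1, was at or below 0.416 FPKM in every library. Tmem258, which is opposite 5.37% of them, was at 31.6 and 28.9 FPKM in the R libraries, against 28.6 and 26.0 FPKM in the libraries without the suffix. Their part in the value of Fen1 was not tested.

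**Figure D3:**
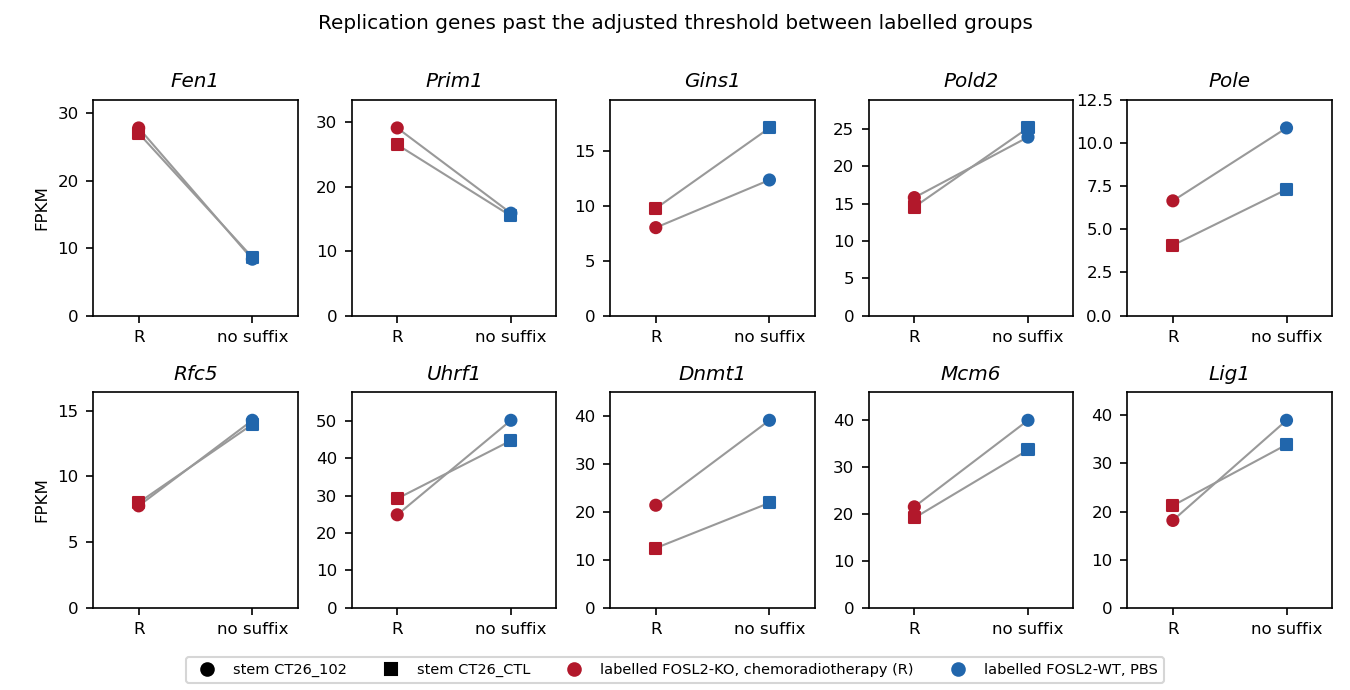
FPKM of the 10 replication genes past the adjusted threshold between the labelled groups, with the R libraries (red) left of the libraries without the suffix (blue) and a line joining the libraries of a stem (circles CT26_102, squares CT26_CTL). The red points of Fen1 and Prim1 lie above their blue points; in the other 8 genes every red point lies below every blue one, in Dnmt1 by little (21.4 FPKM in CT26_102_R against 21.9 FPKM in CT26_CTL).

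Of the 3 fork protection genes, none passed. Timeless, a scaffold of the moving fork, was at 7.10 and 4.87 FPKM in the R libraries, against 9.80 and 6.74 FPKM in the libraries without the suffix (-0.41 ± 0.131 SE, adjusted p = 0.0954). Tipin, its binding partner, had the opposite sign, at 47.4 and 38.8 FPKM in the R libraries and 34.3 and 36.4 FPKM in the libraries without the suffix (0.27 ± 0.142 SE, adjusted p = 0.228). Clspn, the claspin gene, which carries the checkpoint signal at forks, had a log2 difference of -0.26.

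Uhrf1 and Dnmt1, which copy DNA methylation to the new strand, both fell. Dnmt1 (ENSMUSG00000004099, chromosome 9, 20907209 to 20959888, minus strand), the maintenance methyltransferase, was at 21.4 and 12.5 FPKM in the R libraries, against 39.2 and 21.9 FPKM in the libraries without the suffix (-0.80 ± 0.124 SE, adjusted p = 0.0298). Uhrf1 (ENSMUSG00000001228, chromosome 17, 56303321 to 56323486, plus strand), which recruits Dnmt1 to hemimethylated sites, was at 24.9 and 29.2 FPKM in the R libraries, against 50.1 and 44.7 FPKM in the libraries without the suffix (-0.79 ± 0.146 SE, adjusted p = 0.0387). On the log2 scale Dnmt1 fell by 0.84 within stem CT26_102 and by 0.77 within stem CT26_CTL, and Uhrf1 fell by 0.98 and by 0.60. The pseudogene Gm5648, which matches Uhrf1 at 98.3% over 1590 bases, was at or below 0.767 FPKM. The chromatin assembly subunits Chaf1a (-0.28) and Chaf1b (-0.03), which place histones on new DNA, did not pass. Of the exonic bases of Chaf1a, 52.5% lie opposite those of Ubxn6. Ubxn6 was at 9.03 and 12.8 FPKM in the R libraries and 8.19 and 12.2 FPKM in the libraries without the suffix. Its part in the value of Chaf1a was not tested.

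**Figure D4:**
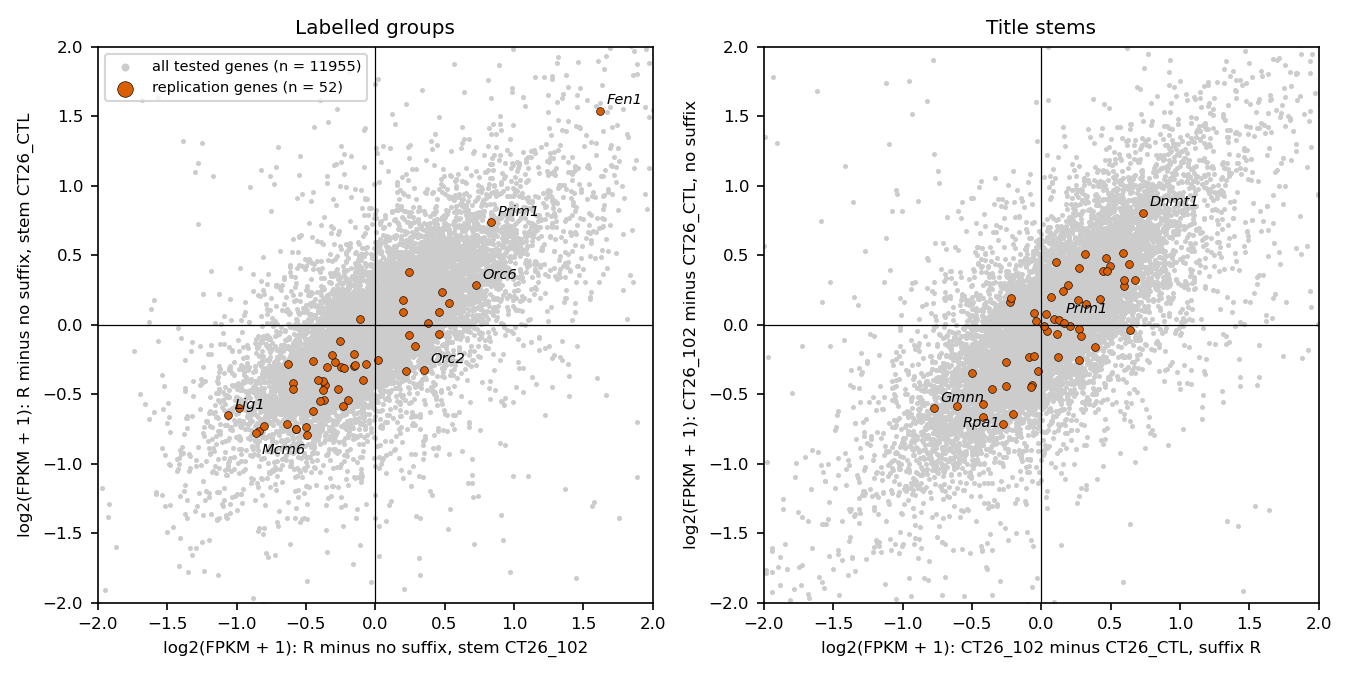
Each point is a gene, with its difference in log2(FPKM + 1) in 1 pair of libraries on the horizontal axis and in the other pair on the vertical axis, replication genes in orange over all 11955 tested genes in grey; left, R library minus library without the suffix in each stem, and right, stem CT26_102 minus stem CT26_CTL with and without the suffix R. On the left 35 of the 52 genes are below 0 on both axes, and Fen1 lies farthest to the upper right; on the right they spread to both sides, and 124 genes on the left and 197 on the right lie outside the axes.

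Further genes of replication outside the 52 were taken from a list of 28, of which 27 were tested and Mcm9 was not. One of them rose, where 7.57% of all tested genes did, 3 fell, where 5.32% did, and 23 did not pass. Either direction together made 14.8% of the 27, close to the 12.9% of all tested genes. The median log2 difference was -0.22, and 19 of the 27 (70.4%) were lower in both stems, where 38.2% of all tested genes were. Top2a, the topoisomerase that untangles daughter DNA and a gene of late S phase and mitosis, was at 29.9 and 16.7 FPKM in the R libraries, against 62.8 and 42.3 FPKM in the libraries without the suffix (-1.17 ± 0.1301 SE, adjusted p = 0.0198). Topbp1, which helps activate the helicase and the checkpoint kinase ATR, fell by 0.68 (adjusted p = 0.0407), and Rif1, a regulator of replication timing, fell by 0.68 (adjusted p = 0.0436). Pold4, the smallest subunit of polymerase delta, rose, at 31.3 and 78.1 FPKM in the R libraries against 18.7 and 45.0 FPKM in the libraries without the suffix (0.75 ± 0.118 SE, adjusted p = 0.0309). It shares 24.6% of its exonic bases with another gene model on its strand, AC109138.7, which is listed at 0 in every library. Pole3, a small histone-fold subunit of polymerase epsilon named after its values were seen, was at 42.1 and 49.9 FPKM in the R libraries, against 29.2 and 35.4 FPKM in the libraries without the suffix (0.50 ± 0.117 SE, adjusted p = 0.0550). Pole4, the other small subunit of epsilon in the list, had opposite directions in the stems (0.47 in stem CT26_102 and -0.01 in stem CT26_CTL, adjusted p = 0.358).

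Transcript length moved with the difference between labelled groups over all genes. The median log2 difference of all tested genes was 0.15 in the fifth with the shortest exonic length and -0.15 in the fifth with the longest. Across the 52 genes, which share the same 4 libraries, the log2 difference had a Spearman correlation of -0.30 and a Pearson correlation of -0.28 with log2 exonic length. Over the 11949 tested genes with a known length the Spearman correlation was -0.23. With the trend on length removed, 2 of the 52 genes rose, where 6.94% of all tested genes did, and 10 fell, where 5.19% did. Gmnn, Pole2 and Rpa3 were added and Pole was lost, and the median was -0.27, beside an all-gene median of 0.01. Fen1 has 2422 and Prim1 3868 exonic bases, against a median of 4347 and a range of 1136 to 11160 bases over the 52 genes.

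Between the title stems the replication genes went to both sides. With both terms in the fit, 3 of the 52 genes were higher in stem CT26_102 than in stem CT26_CTL, where 12.5% of all tested genes were, 4 were lower, where 9.44% were, and 45 did not pass. Either direction together made 7 of 52 genes, where 21.9% of all tested genes passed. With the stem as the only term none of the 52 passed (0.284% of all genes did), the smallest adjusted p being 0.296, with 1 of 52 at an unadjusted p under 0.05, where 16.7% of all genes were; with both terms 20 of 52 were, where 40.4% of all genes were. The median log2 difference of the 52 genes was 0.08 and that of all tested genes 0.05, and 23 genes (44.2%) were higher in both pairs of libraries, where 43.4% of all tested genes were, while 15 (28.85%) were lower in both, where 34% were, and 14 had opposite directions, where 22.6% did. The 2 comparisons use the same 4 libraries.

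Dnmt1 had the largest difference between the stems, at 21.4 and 39.2 FPKM in stem CT26_102 (with the suffix R and without it), against 12.5 and 21.9 FPKM in stem CT26_CTL (0.77 ± 0.124 SE, adjusted p = 0.0198). Mcm5 was at 35.6 and 43.0 FPKM in stem CT26_102, against 22.5 and 31.5 FPKM in stem CT26_CTL (0.54 ± 0.127 SE, adjusted p = 0.0428, or 0.0545 without the mean-variance trend). Pole was at 6.65 and 10.9 FPKM in stem CT26_102, against 4.07 and 7.31 FPKM in stem CT26_CTL (0.55 ± 0.132 SE, adjusted p = 0.0439, or a log2 difference of 0.30 and adjusted p = 0.175 with the trend on length removed). These 3 genes were higher in both libraries of stem CT26_102 than in the matching library of stem CT26_CTL, and of them Dnmt1 and Pole had also passed between the labelled groups.

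Gmnn was lower, at 13.2 and 20.5 FPKM in stem CT26_102 against 23.3 and 31.5 FPKM in stem CT26_CTL (-0.69 ± 0.129 SE, adjusted p = 0.0269). Rpa1, the large RPA subunit, was at 18.4 and 22.7 FPKM in stem CT26_102, against 28.5 and 34.5 FPKM in stem CT26_CTL (-0.60 ± 0.121 SE, adjusted p = 0.0320). Pcna was at 101 and 112 FPKM in stem CT26_102, against 136 and 167 FPKM in stem CT26_CTL (-0.50 ± 0.106 SE, adjusted p = 0.0356). For Gmnn, Rpa1 and Pcna alike both libraries of stem CT26_102 lay below the matching library of stem CT26_CTL. Rfc3 was at 15.9 and 11.1 FPKM in stem CT26_102, against 21.6 and 18.2 FPKM in stem CT26_CTL (-0.54 ± 0.137 SE, adjusted p = 0.0492). Fen1 and Lig1, which had the largest differences between labelled groups, had log2 differences of 0.00 and -0.01 between the stems.

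The levels of some partners were also compared with each other by stem. The ratio of Gmnn to Cdt1, the inhibitor to its target, was 0.846 and 1.23 in stem CT26_102 (with the suffix R and without it), against 1.83 and 1.84 in stem CT26_CTL. The ratio of Uhrf1 to Dnmt1 was 1.16 and 1.28 in stem CT26_102, against 2.34 and 2.04 in stem CT26_CTL. In both ratios the stems did not overlap. Gmnn and Dnmt1 had passed between the stems, while Cdt1 (0.12) and Uhrf1 (-0.03) had not. The ratios thus restate the differences of Gmnn and Dnmt1 and are no separate result.

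**Figure D5:**
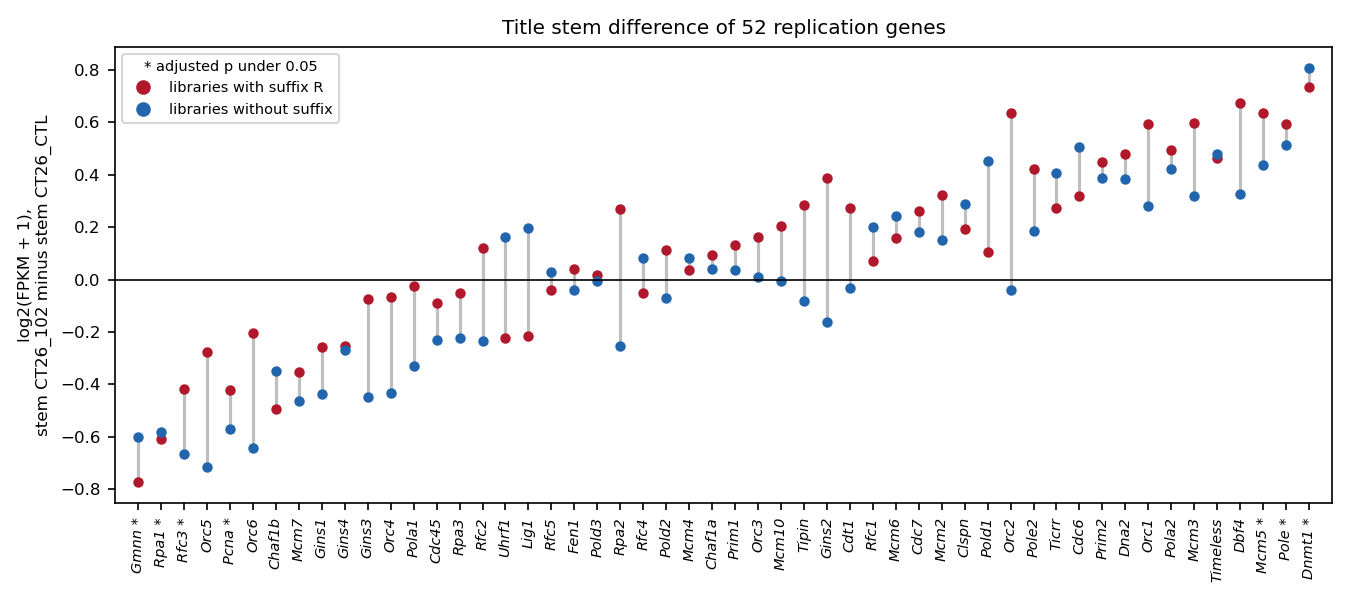
Difference in log2(FPKM + 1), stem CT26_102 minus stem CT26_CTL, for each of the 52 replication genes in order of the mean difference, between the R libraries (red) and between the libraries without the suffix (blue); an asterisk marks an adjusted p under 0.05. The genes run from Gmnn, lowest in stem CT26_102, to Dnmt1, highest; in 23 genes both points lie above 0 and in 15 both lie below.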

How the data were processed

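RNA-seq libraries were made from total RNA with a SMARTer kit, per the labels' protocols. The authors deposited FPKM per gene and library, with no scaling between libraries stated; for aligner, quantifier and strandedness the entry is not given in the sources used here, and the submitters' processing notes name GRCm38 and mm10. Of 55335 identifiers, 55154 (99.67%) matched GENCODE M21, which gave positions and exonic lengths. Depth was taken from the step that 1 read makes among low FPKM values, of which 33.15% to 34.54% were whole within 0.02 reads, so depths are approximate and carry no counting intervals. Values were analysed as log2(FPKM + 1), which understates folds of low genes, for genes with at least 1 FPKM in at least 2 libraries. R 4.3.3 with limma 3.58.1 fitted title stem and labelled group as 2 terms (1 residual and 4.01 prior degrees of freedom, mean-variance trend); two-sided p-values had Benjamini-Hochberg adjustment over all 11955 genes, with a threshold of 0.05. The fit was tested on simulated data. Copies of at least 95% identity over 300 bases were found with BLAST 2.17.0. The genes named are those past the threshold, the largest difference in each subgroup, genes of a further replication list past the threshold, and Fosl2; other genes were named after their values were seen. Genes and lists were chosen with earlier results of these data known. Alternatives changed the pseudocount, scaling, length correction, filter, terms and trend, and left out each library in turn.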

Additional observations from a re-analysis of the deposited data

Results flagged for a closer look

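Of the 7 replication genes with opposite directions between the labelled groups in the 2 stems, 3 moved by more than 0.1 on the log2 scale in each stem. Orc2, an origin recognition subunit, was at 25.7 FPKM in CT26_102_R against 19.9 FPKM in CT26_102, and at 16.2 FPKM in CT26_CTL_R against 20.5 FPKM in CT26_CTL, so its log2 difference was 0.35 in stem CT26_102 and -0.32 in stem CT26_CTL, 0.676 apart. Orc5, another subunit, had 0.29 in stem CT26_102 and -0.15 in stem CT26_CTL, 0.438 apart. Gins2, of the GINS complex, had 0.22 in stem CT26_102 and -0.33 in stem CT26_CTL, 0.550 apart. These 3 differences between stems were not tested, since the 4 libraries leave no residual degree of freedom for them. Of the exonic bases of Gins2, 67.3% lie opposite Gse1, which was at 4.40 and 1.93 FPKM in the R libraries against 2.30 and 0.747 FPKM in the libraries without the suffix, and of those of Orc2, 29.8% lie opposite Nif3l1, at 3.27 to 4.43 FPKM. Their part in these values was not tested.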

How the results depend on the processing

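No value past the threshold changed sign under any alternative run. Of the values that had not passed between the title stems, that of Pold2 was -0.0398 on rescaling by median of ratios (0.02 as deposited), and with the length trend removed that of Rpa3 was 0.0516 (-0.14 before) and that of Fen1 0.0971 (-0.000444 before). On leaving out a library Lig1 reached 0.20, Uhrf1 0.16, Fen1 0.04, Rfc5 0.03 and Pold2 -0.07, each with the opposite sign to its value over 4 libraries. Gene values were followed for 18 of the 52, those past the threshold in either division or with the largest difference in a subgroup. Over all 52, each of the 14 genes with opposite directions in the 2 pairs of libraries changes sign in this way between the stems. These 14 include the genes just named. For the labelled groups, each of the 7 genes with opposite directions in the 2 stems does so too. Between the labelled groups, the count of replication genes that rose (2) and of those that fell (8) were both 0 with no filter on low values (0 of 27670 genes passed, 4937 of them and 28 of the 52 at an unadjusted p under 0.05), with the labelled group as the only term, and on leaving out any 1 library, which used that same single term because 3 libraries leave no residual degree of freedom with 2 terms. Rescaling to the upper quartile gave 14 that fell, the 8 with Gmnn, Mcm2, Pola1, Pole2, Rfc1 and Rpa3 added, and a median of -0.34 beside an all-gene median of -0.05; it moved the split of all genes to 937 higher and 1011 lower, against 905 higher and 636 lower as deposited. A filter of 5 FPKM gave 13 that fell, where 726 of 7489 genes (9.69%) did. Leaving out the mean-variance trend lost Gins1 and Pold2 from those that fell, which left 6. Between the title stems, the counts higher (3) and lower (4) were likewise 0 with no filter (5802 of 27670 genes and 18 of the 52 at an unadjusted p under 0.05), with the stem as the only term and on leaving out any 1 library. Rescaling by median of ratios left 1 higher, with Mcm5 and Pole lost, and gave 1190 genes higher and 1312 lower over all, against 1494 higher and 1129 lower as deposited; the 5 FPKM filter gave 1061 higher and 1121 lower. Removing the length trend left 1 lower, with Gmnn, Pcna and Rfc3 lost, and 2 higher, with Pole lost. Leaving out the mean-variance trend left 2 lower, with Pcna and Rfc3 lost, and 2 higher, with Mcm5 lost, and a pseudocount of 0.1 lost Rfc3. Leaving out 1 library moved the median of the 52 genes between -0.31 and -0.25 between labelled groups and between 0.02 and 0.12 between stems. Unlike the counts, these medians and the gene values with a library left out are simply those of the pair of libraries that remains. They are therefore no check separate from the values within each stem and each pair. The cause of the changes under these alternatives was not tested. The labels give no replicate numbers; the fit with the title stem as a term pairs the 2 libraries of a stem, and the fit with a single term leaves this pairing out. Depth limits the lowest genes most, since 1 read in a transcript of 2 kilobases is worth between 0.0189 and 0.0231 FPKM, and 2 libraries a group limit all of them.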
